A study of Arabidopsis thaliana with 12 samples.

Results

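The sulphate transporters of Arabidopsis thaliana were followed across leaves and roots of a vitamin B6 mutant and its wild type. They were chosen by annotation, with earlier results of these data known, as 10 loci of the SULTR family. On the array 21363 loci have a probe set of their own. SULTR3;2 and SULTR3;3 of the same family are not among the 10. All 10 are measured by 1 probe set of 11 probes each that names no other locus. They are SULTR1;1 (AT4G08620), SULTR1;2 (AT1G78000), SULTR1;3 (AT1G22150), SULTR2;1 (AT5G10180), SULTR2;2 (AT1G77990), SULTR3;1 (AT3G51895), SULTR3;4 (AT3G15990), SULTR3;5 (AT5G19600), SULTR4;1 (AT5G13550) and SULTR4;2 (AT3G12520). In the annotation, SULTR1;2 and SULTR2;2 are direct neighbours on chromosome 1.

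The study compared a pdx1.3 knockout (ko) in the Col-0 ecotype with wild-type (WT) Col-0, and WT was the control in each organ. PDX1.3 is 1 of the genes for pyridoxal phosphate synthase, with which plants form vitamin B6, and this vitamin in its active form is a cofactor of many enzymes of amino acid metabolism. RNA was measured on Affymetrix ATH1 arrays, where several short oligonucleotide probes make up the probe set of a gene, with 3 arrays described as biological replicates for each of 4 groups. These were leaves of pdx1.3 ko seedlings, leaves of WT seedlings, roots of pdx1.3 ko seedlings and roots of WT seedlings. All seedlings had grown for 10 days after germination on Murashige and Skoog medium of 0.5 strength that held 1% sucrose but lacked vitamin B6. Days had 16 h of light at 22 °C and nights 8 h at 18 °C. The mutant is a single line with no complemented line beside it, and the labels do not say where the mutation lies. Signals are linear intensities that the authors scaled per array, so they compare arrays for the same gene and not one gene with another.

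Sulphate enters the plant at the root, travels in the xylem to the shoot, is reduced to sulphide in plastids and is then built into cysteine, while surplus sulphate is kept in vacuoles. The SULTR proteins carry sulphate together with protons across membranes, and their numbering follows sequence groups. Group 1 holds high-affinity carriers, group 2 holds low-affinity carriers of the vascular tissue, group 3 includes carriers of the chloroplast, and group 4 releases sulphate from the vacuole. Several of these genes are known to be induced when sulphur is scarce, and the transcript of SULTR2;1 is cut under the control of the microRNA miR395.

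The targeted gene served as a check of the labels. PDX1.3 had signals of 40.5, 38.2 and 50.5 in pdx1.3 leaves, against 591, 942 and 935 in WT leaves. In roots it had 116, 95.8 and 82.1 in the mutant and 264, 282 and 282 in WT. It was lower on every mutant array of its organ. The genotype entry of the sample labels reads the opposite of the titles for all 12 samples, and the groups here follow the titles, as the PDX1.3 signal does. The share of probe sets called present was 63.2 to 71.8% per array, and replicates of a group correlated at 0.968 to 0.992 over probe sets (Pearson, log2 scale). The actin 3'/5' ratio, which rises as RNA degrades, spanned 2.97 to 8.71, and the GAPDH 3'/5' ratio 1.01 to 1.34. The 7 leaf marker genes were called absent throughout in no group, and their summed signals in leaves were 31704 to 36128 in pdx1.3 leaves and 32102 to 38582 in WT leaves. The 8 root markers summed to 1828 to 2329 in pdx1.3 roots and to 1953 to 2551 in WT roots. In leaves their sums were 50.6 to 67.4 in pdx1.3 and 59.5 to 69.5 in WT, with 7 and 6 of the 8 called absent on all 3 arrays. In WT roots 1 of the 8, NRT2.1, was called absent on all 3 arrays. The leaf markers summed to at most 1100 in pdx1.3 roots and 1628 in WT roots. By these sums each list was far brighter in its own organ. In bulk RNA, fewer cells of a type and less RNA per cell cannot be told apart.

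In leaves, 3 of the 10 transporters were higher in pdx1.3 than in WT and none was lower. They were the vascular carrier SULTR2;1, the chloroplast carrier SULTR3;1 and the vacuolar exporter SULTR4;2. Over all probe sets 7.22% passed the same test in leaves (limma, Benjamini-Hochberg adjusted p under 0.05), 4.70% as higher in the mutant. Of those calls 65.2% were higher, against 58.4% after quantile normalization and 49.97% after centring each array on its median. In roots, SULTR2;1 alone of the 10 was higher in pdx1.3 and none was lower, where 0.809% of all probe sets passed and 0.497% were higher. The median log2 change over the 10 was 0.20 in leaves and 0.26 in roots, where the median over all probe sets was 0.01 in both. Log2 changes are differences of log2(signal + 16), which understate the change of dim genes.

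**Figure D1:**
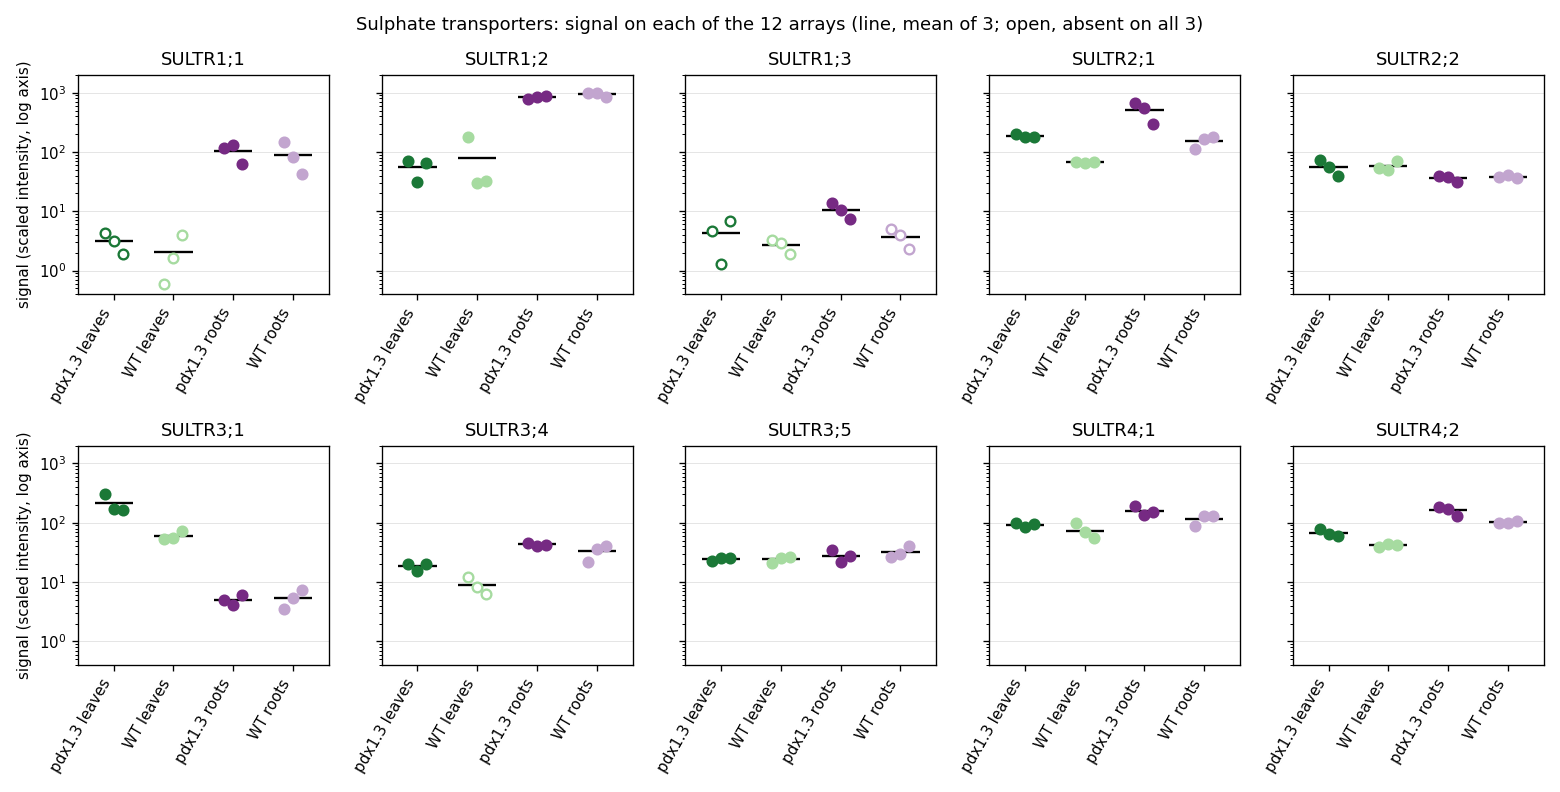
Signal of each of the 10 sulphate transporters on the 12 arrays, on a log axis of scaled intensity. Points are single arrays, lines are means of 3, and open points mark groups in which the gene was called absent on all 3 arrays. SULTR2;1 lies at 179 to 204 in pdx1.3 leaves and 66.0 to 67.1 in WT leaves, and SULTR3;1 at 167 to 308 and 53.7 to 72.1.

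None of the 3 high-affinity carriers of group 1 passed the genotype test in either organ. SULTR1;1, a high-affinity uptake carrier of the root surface that responds strongly to sulphur starvation, had 115, 130.0 and 61.7 in pdx1.3 roots and 147, 81.6 and 42.0 in WT roots. The root groups overlapped over nearly their whole range, and the log2 change was 0.23 (95% interval -0.45 to 0.91). In leaves it was called absent on all 6 arrays, with signals up to 4.34 in pdx1.3 and up to 3.94 in WT.

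SULTR1;2, the main high-affinity uptake carrier of the root, had 787, 855 and 871 in pdx1.3 roots, against 973, 994 and 856 in WT roots. These groups overlapped, with a log2 change of -0.16 (95% interval -1.09 to 0.76). In leaves it had 69.9, 31.4 and 66.0 in pdx1.3 and 177, 29.9 and 32.6 in WT. The first WT leaf array stood above all 5 other leaf arrays. The leaf change was -0.12 with all arrays, and its sign turned without that array, at 0.55, and without the second pdx1.3 leaf array, at 0.15. Of the 2 root markers called present on any WT leaf array, COBL9 was also highest on the first, at 19.4 against 13.3 and 12.7 on the other 2, while PHO1 was lowest there, at 9.88 against 28.5 and 19.6. All 8 root markers together summed to 59.5 on the first WT leaf array, against 69.5 and 64.3 on the other 2. The part of root tissue in this value was not tested.

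The remaining member of the group, SULTR1;3, is a high-affinity carrier of the phloem that moves sulphate between organs. It was called absent on 11 of the 12 arrays and present on 1 pdx1.3 root array. Its signals were 14.1, 10.5 and 7.27 in pdx1.3 roots, against 4.97, 3.92 and 2.31 in WT roots, and the groups did not overlap. The log2 change of 0.43 had an adjusted p of 0.131 (limma), and of 0.0443 when the third pdx1.3 root array was left out. Its leaf signals of 1.31 to 6.90 in pdx1.3 and 1.91 to 3.22 in WT were all called absent.

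In group 2, SULTR2;1 is a low-affinity carrier of the cells around the xylem and is known for loading sulphate into the xylem on its way from root to shoot. Its leaf signals were 204, 179 and 179 in pdx1.3, against 66.9, 66.0 and 67.1 in WT. Every mutant leaf array lay above every WT leaf array by a wide margin, and the WT leaves were nearly identical. The mean signal of 187 ± 14.8 in pdx1.3 leaves was 2.81 times the 66.7 ± 0.602 of WT leaves (SD, n = 3 each). The log2 change was 1.295 ± 0.24 (SE of the fit, 95% interval 0.78 to 1.81), with an adjusted p of 0.00606 by limma, and it passed the test in all 24 other settings tried, 12 of which left out 1 array each.

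In roots the same carrier had 666, 554 and 298 in pdx1.3, against 114, 168 and 176 in WT. Again all mutant arrays were above all WT arrays, but the mutant roots varied more, and the third pdx1.3 array was well below the others. Mean root signals were 506 ± 189 in pdx1.3 and 153 ± 33.6 in WT (SD, n = 3 each), a ratio of 3.31. The log2 change was 1.58 ± 0.24 (95% interval 1.06 to 2.09), with an adjusted p of 0.00734 by limma. It passed in all 12 fits without 1 array, where it ranged from 1.35 to 1.91, and missed the threshold at 0.101 when root arrays alone were fitted. The leaf and root changes differed by -0.28 (95% interval -1.01 to 0.45, adjusted p = 0.816 by limma), so no difference between the organs was detected.

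By mean signal the groups ranked pdx1.3 roots, pdx1.3 leaves, WT roots and WT leaves for this gene, and no neighbours in that order overlapped. Because it is a vascular gene, 6 vascular markers were read beside it. They summed to 707 to 848 in pdx1.3 leaves and 551 to 668 in WT leaves, without overlap, and to 381 to 612 in pdx1.3 roots and 339 to 570 in WT roots. None of the 6 passed the genotype test in either organ. The largest leaf contributor, the phloem sucrose carrier SUC2, averaged 488 in pdx1.3 leaves and 362 in WT leaves, with an adjusted p of 0.114 by limma. The markers SEOR1, APL and IRX3 averaged 112, 29.9 and 14.8 in pdx1.3 leaves, against 76.0, 25.5 and 14.0 in WT leaves. Of the 6 markers only SUC2 and SEOR1 did not overlap in leaves, both higher in pdx1.3. The xylem markers XCP1 and XCP2 averaged 18.1 and 98.9 in pdx1.3 leaves, against 24.4 and 101 in WT leaves. XCP1 was called present on 0 of 3 pdx1.3 leaf arrays. In leaves 4 of the 6 markers had a positive log2 change and 2 a negative one. The part of vascular tissue in the leaf change of the transporter was not tested.

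The other low-affinity carrier, SULTR2;2, is known from the root phloem and the leaf vascular bundle sheath. It had 72.5, 56.5 and 39.7 in pdx1.3 leaves, against 53.0, 49.6 and 69.9 in WT leaves. Root signals lay between 31.3 and 39.8 in pdx1.3 and between 36.1 and 40.4 in WT. The groups overlapped in both organs, with log2 changes of -0.041 in leaves (95% interval -0.41 to 0.33) and -0.052 in roots (95% interval -0.42 to 0.32).

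Among group 3, the carrier of the chloroplast envelope SULTR3;1 brings sulphate to the site of its reduction. Its leaf signals were 308, 170.5 and 167 in pdx1.3, against 53.7, 54.6 and 72.1 in WT. Every mutant leaf lay far above every WT leaf, and the first mutant array was the highest of all 12. Mean leaf signals were 215 ± 80.2 in pdx1.3 and 60.1 ± 10.4 in WT (SD, n = 3 each), a ratio of 3.58. The log2 change was 1.56 ± 0.20 (95% interval 1.12 to 1.99), with an adjusted p of 0.00069 by limma. It passed in all 24 other settings, with values from 1.13 to 1.77.

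In roots the gene was dim, called absent on 1 pdx1.3 array and present on the other 5, with 5.03, 4.09 and 5.95 in pdx1.3 and 3.50, 5.39 and 7.46 in WT. The root groups overlapped, and the log2 change was -0.026 (95% interval -0.46 to 0.41). Its change in leaves exceeded that in roots by 1.58 (95% interval 0.97 to 2.20), with an adjusted p of 0.0159 by limma for this difference. It was the 1 transporter of 10 to pass this test of unequal change, which 1.87% of all probe sets passed, 1.13% in this direction. The adjusted p was 0.0575 with a constant of 1 in place of 16 and 0.0528 without the second WT root array.

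SULTR3;4, a group 3 member that is also known as a phosphate carrier of the vascular tissue, had 20.4, 15.3 and 20.4 in pdx1.3 leaves, against 12.3, 8.30 and 6.21 in WT leaves. It was called present or marginal on all 3 mutant leaf arrays and absent on all 3 WT leaf arrays, without overlap. Against the signal at which probe sets were called marginal, the leaf level was at least 1.49-fold higher in pdx1.3, with an adjusted p of 0.0878 by limma, and of 0.0443 without the first WT root array. Root signals of 45.4, 41.3 and 42.4 in pdx1.3 were also all above the 22.1, 36.6 and 40.8 of WT roots, with a log2 change of 0.28 (adjusted p = 0.895 by limma).

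SULTR3;5 is known to raise the activity of its vascular partner from group 2 in roots, while it carried little sulphate alone when expressed in yeast. Its leaf signals spanned 22.6 to 25.7 in pdx1.3 and 21.3 to 26.3 in WT. It had 34.5, 22.0 and 27.3 in pdx1.3 roots, against 26.2, 30.2 and 41.1 in WT roots. The groups overlapped in both organs. The leaf change was 0.0092 (95% interval -0.31 to 0.32), and turned negative at -0.052 after quantile normalization and -0.058 after centring the arrays. The root change was -0.14 (95% interval -0.46 to 0.17).

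Group 4 sits in the vacuolar membrane and releases stored sulphate. SULTR4;2, the member more strongly induced by sulphur starvation, had 77.9, 63.9 and 61.0 in pdx1.3 leaves, against 38.3, 43.5 and 42.9 in WT leaves. All mutant leaves lay above all WT leaves. The log2 change was 0.53 ± 0.14 (95% interval 0.24 to 0.83), with an adjusted p of 0.0348 by limma. This call was lost in 13 of 24 other settings, including the fits without any 1 of the 6 leaf arrays or without the second WT root array, where the adjusted p reached 0.114.

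In roots the same exporter had 187, 169 and 131 in pdx1.3, against 100.2, 99.9 and 109 in WT, again without overlap. The root log2 change of 0.57 (95% interval 0.27 to 0.87) was of the leaf size but had an adjusted p of 0.0949 by limma. Without the third pdx1.3 root array it was 0.70 with an adjusted p of 0.0202. The test of the difference between organs gave -0.037 (95% interval -0.46 to 0.39), so no difference between leaves and roots was detected.

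SULTR4;1, the other exporter, had 98.4, 84.8 and 94.5 in pdx1.3 leaves and 97.3, 69.4 and 55.2 in WT leaves, which overlapped. Roots had 194, 135 and 151 in pdx1.3 and 87.7, 130.3 and 131 in WT, with each mutant array above each WT array. The log2 changes were 0.30 in leaves and 0.41 in roots, with adjusted p values of 0.434 and 0.751 by limma.

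**Figure D2:**
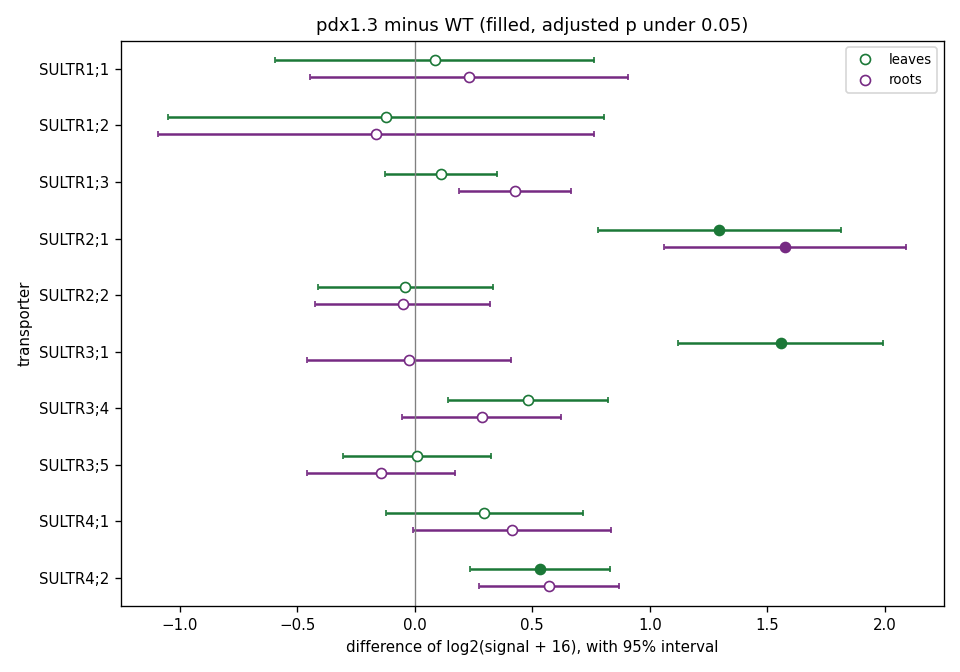
Genotype change of each sulphate transporter, pdx1.3 minus WT, as the difference of log2(signal + 16) with its 95% interval, for leaves and for roots. Filled points passed at an adjusted p under 0.05. SULTR2;1 changed by 1.295 in leaves and 1.58 in roots, and SULTR3;1 by 1.56 in leaves with -0.026 in roots.

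Counting arrays without a model, 4 of the 10 transporters had all 3 pdx1.3 leaf arrays above all 3 WT leaf arrays and none of these 10 had the reverse, where 24.6% of all probe sets did not overlap between genotypes in leaves and 14.4% did so as higher. In roots this held for 5 of the 10, all higher in pdx1.3, where the shares over all probe sets were 11.1% and 5.77%. Among the 5 is SULTR1;3, called absent on 2 of 3 pdx1.3 root arrays and on all 3 WT root arrays. SULTR3;4 and SULTR4;1 separated narrowly, with nearest arrays of 41.3 against 40.8 and 135.3 against 131.4. The family also holds SULTR3;2 and SULTR3;3, which were read with the other sulphur genes, and for both all pdx1.3 leaf arrays lay below all WT leaf arrays. SULTR3;3 had 58.4, 47.9 and 48.2 in pdx1.3 leaves, against 149, 70.0 and 68.0 in WT leaves, with a log2 change of -0.66 and an adjusted p of 0.0928 by limma. The other had 20.4, 22.0 and 18.0 in pdx1.3 leaves and 22.6, 24.2 and 24.8 in WT leaves, with -0.14 and 0.512, and neither passed. Leaf and root comparisons use different arrays, but they share the estimate of variance in the fit. The leaf markers gave a lower sum in pdx1.3 roots, of 780 to 1100, than in WT roots, of 1341 to 1628, with 1 of 7 passing as lower. Of the 8 root markers 1 passed in roots, the iron transporter IRT1, at 12.3 in pdx1.3 roots and 40.3 in WT roots on average (adjusted p = 0.0257 by limma). The nitrate transporter NRT2.1 averaged 41.7 in pdx1.3 roots and 12.2 in WT roots, without overlap (adjusted p = 0.135). CASP1 went the other way without overlap, averaging 911 in pdx1.3 roots and 1192 in WT roots (adjusted p = 0.588 by limma). The part of these markers in the root values was not tested.

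The authors filtered genes on a fold of at least 2 and on change calls in at least 7 of 9 pairs of a mutant and a WT array. In the authors' deposited table, the vascular carrier SULTR2;1 passed that filter with folds of 2.99 in leaves and 3.32 in roots, each with 9 of 9 pairs called increased. The same deposited table by the authors lists the chloroplast carrier at 3.43 in leaves with 9 of 9 pairs, which also passed. In the authors' deposited table, SULTR4;2 had 9 of 9 pairs in leaves and 7 of 9 in roots, with folds of 1.58 and 1.47, below the fold the filter asks for.

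Between leaves and roots, 9 of the 10 transporters differed in pdx1.3, with 2 higher and 7 lower in leaves, where 54.7% of all probe sets passed, 22.2% as higher and 32.4% as lower. In WT, 7 of 10 differed, 1 of them higher and 6 lower in leaves, where 52.5% of all probe sets passed, 20.9% as higher and 31.7% as lower. With a majority of the array passing, these counts say little about the family, and sizes are given instead. The median log2 difference, leaves minus roots, was -0.73 in pdx1.3 and -0.77 in WT, against -0.044 and -0.048 over all probe sets. Centring moved the medians over all probe sets to 0.076 in pdx1.3 and 0.12 in WT, and the higher share of their calls to 51.3% and 57.8%, against 40.7% and 39.7% with the deposited scaling.

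Both uptake carriers of the root surface were far lower in leaves. The leaf minus root difference of SULTR1;2 on the log2 scale was -3.62 in pdx1.3 (adjusted p = 9.08e-06 by limma) and -3.66 in WT (adjusted p = 8.95e-06), or -4.34 without the first WT leaf array. SULTR1;1, absent in leaves, was at least 8.82-fold lower in leaves than in roots in pdx1.3 and at least 6.36-fold lower in WT. Both calls held in every one of the 23 other settings for each genotype. SULTR1;3, absent by its calls throughout pdx1.3 leaves and on 2 of 3 pdx1.3 root arrays, is among the 9 that passed in pdx1.3, although most of these arrays gave no signal above background. Its leaf minus root difference of -0.39 there had an adjusted p of 0.00852 by limma and missed at 0.0628 when arrays were centred on their medians. In WT it was -0.078 and turned positive at 0.089 with that centring.

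SULTR3;1 ran the other way. It was higher in leaves than in roots by 3.41 in pdx1.3 and by 1.82 in WT, with adjusted p values of 1.12e-08 and 5.20e-06 by limma. Its wider gap in the mutant is the unequal genotype change given above, seen from the organs. SULTR2;2 was the other member higher in leaves in pdx1.3, by 0.44 with an adjusted p of 0.0437, and had 0.43 in WT with an adjusted p of 0.0505, both by limma. Its 2 differences were alike in size and fell on opposite sides of the threshold, and the call in pdx1.3 was lost in 10 of 23 other settings. These included the fits without any 1 of the 6 root arrays and without the first or second pdx1.3 leaf array, with an adjusted p of up to 0.181.

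The remaining members were lower in leaves than in roots or showed no difference that passed. SULTR2;1 differed by -1.29 in pdx1.3 and -1.01 in WT, and SULTR4;2 by -1.08 and -1.05. All 4 of these differences passed in every other setting run. SULTR3;4 differed by -0.77 in pdx1.3 and, as a bound, was at least 2.57-fold lower in WT leaves than in WT roots. The exporter SULTR4;1 differed by -0.68 in pdx1.3 and -0.57 in WT, with adjusted p values of 0.00885 and 0.026 by limma, the WT call being lost in 6 of 23 other settings, 4 of them without the second or the third array of WT leaves or of WT roots. SULTR3;5 passed in neither genotype, with -0.11 in pdx1.3, which turned to 0.033 after quantile normalization and 0.013 after centring, and -0.26 in WT.

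**Figure D3:**
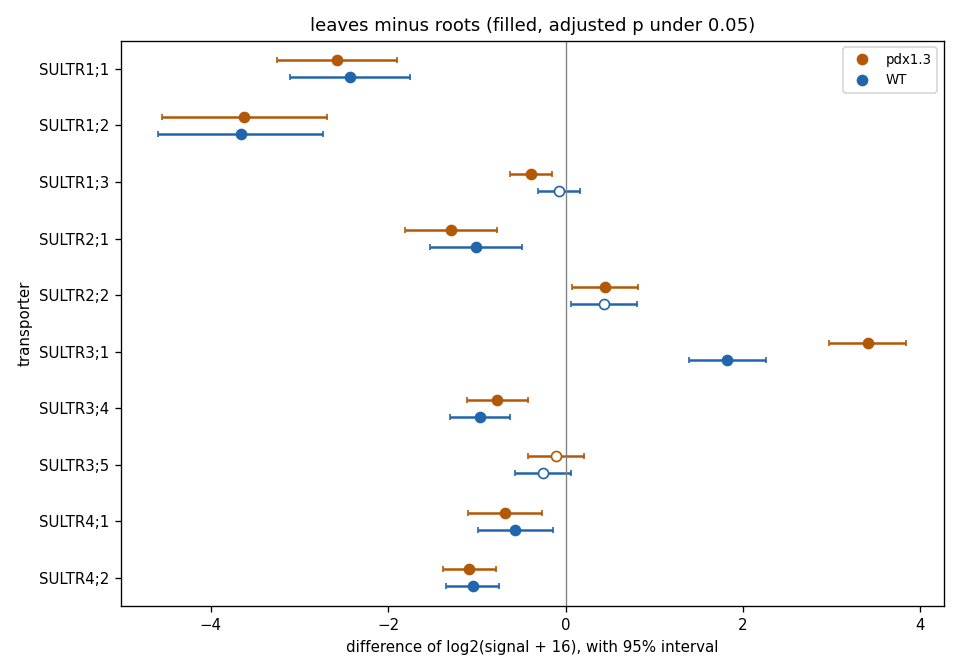
Organ difference of each sulphate transporter, leaves minus roots, as the difference of log2(signal + 16) with its 95% interval, in pdx1.3 and in WT. Filled points passed at an adjusted p under 0.05. SULTR1;2 lies at -3.62 in pdx1.3 and -3.66 in WT, while SULTR3;1 lies at 3.41 and 1.82.

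Other genes of sulphur metabolism were read from a list of 36, of which 34 have a probe set of their own. In leaves, 4 of the 34 were higher in pdx1.3 and none lower, with a median log2 change of 0.22. In roots 2 were higher and none lower, with a median of 0.14. The shares of all probe sets that passed, 7.22% in leaves and 0.809% in roots, apply here too, and the medians over all probe sets were 0.01. In leaves 12 of the 34 did not overlap between genotypes, 7 as higher, against 24.6% and 14.4% of all probe sets. In roots 12 did not overlap, 11 as higher, against 11.1% and 5.77%.

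Sulphate is activated by ATP sulfurylases before its reduction, and 3 of these, APS1, APS3 and APS4, are targets of miR395 like the vascular carrier. APS4 had 253, 184 and 172 in pdx1.3 leaves, against 90.9, 105 and 157 in WT leaves, without overlap. Its log2 change of 0.73 passed with an adjusted p of 0.0464 by limma, a call lost in 18 of 24 other settings. These included 10 of the 12 fits without 1 array, with an adjusted p of up to 0.157, and the call was kept without the third WT leaf or the first WT root array. In roots it was 0.026. APS1 had 0.33 in leaves and 0.43 in roots and APS3 had -0.19 and 0.61, and none of these 4 values passed, although both had all mutant root arrays above all WT root arrays. APS3 root signals were 151, 116 and 138 in pdx1.3 and 55.5, 97.2 and 102 in WT.

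In cysteine synthesis, the serine acetyltransferase SERAT3;1, which makes the carbon backbone that accepts sulphide, had 145, 143 and 167 in pdx1.3 leaves, against 73.3, 92.1 and 84.2 in WT leaves. All mutant leaves were above all WT leaves. The log2 change was 0.76 ± 0.13 (SE) with an adjusted p of 0.00407 by limma, and it passed in all 24 other settings. It was 0.20 in roots and did not pass there. SERAT2;1 and OASB went the other way in leaves, without overlap, and neither passed. SERAT2;1 had 485, 537 and 699 in pdx1.3 leaves, against 933, 795 and 856 in WT leaves (adjusted p = 0.184 by limma). OASB had 749, 562 and 646 in pdx1.3 leaves, against 818, 1091 and 956 in WT leaves (adjusted p = 0.0645 by limma). Each passed as lower in 1 of 12 fits without 1 array. GSH2 was also lower on every mutant leaf array, at 215, 189 and 164 in pdx1.3 leaves and 508, 256 and 250 in WT leaves. It did not pass, with all arrays or without 1 array.

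The molybdate carriers MOT1 and MOT2 belong to the SULTR family by sequence. MOT1, placed in mitochondria, had 32.4, 20.3 and 31.9 in pdx1.3 leaves, against 5.05, 1.53 and 11.5 in WT leaves, where it was called absent on all 3 arrays. The mutant leaves were called present on 2 of 3 arrays. The mean of the mutant leaves, with 1 array called absent, lay 2.21-fold above the signal of marginal calls in WT leaves. The log2 change was 1.02 (adjusted p = 0.00173 by limma, and 0.0508 with leaf arrays alone). MOT2, placed in the vacuolar membrane, had 155, 122 and 141 in pdx1.3 leaves and 106, 74.3 and 88.0 in WT leaves, without overlap. Its log2 change of 0.57 had an adjusted p of 0.0226 by limma, and the call was lost without the first or the third pdx1.3 leaf array or the second or the third WT leaf array, with an adjusted p of up to 0.0853, and with leaf arrays alone, at 0.124. In roots MOT1 was absent on all 6 arrays and MOT2 had 63.5, 61.6 and 70.4 in pdx1.3 and 88.5, 91.6 and 86.9 in WT.

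Among genes of the low-sulphur response, SDI1, a repressor of glucosinolate synthesis, had 1644, 1643 and 1339.5 in pdx1.3 roots, against 659, 585 and 386 in WT roots. GGCT2;1, which breaks down glutathione in the cytosol, had 865, 653 and 619.8 in pdx1.3 roots, against 322, 246 and 164 in WT roots. Both were higher on every mutant root array. The log2 changes were 1.51 and 1.52, with adjusted p values of 0.0297 and 0.00631 by limma. The call of SDI1 was lost without the third pdx1.3 leaf array, the first or second pdx1.3 root array or the second or the third WT root array, with an adjusted p of up to 0.155, and also with a constant of 1 (0.0595) and with no variance trend (0.052). That of GGCT2;1 was lost in none of the 12 fits without 1 array but missed at 0.0593 with root arrays alone. In leaves the changes were 0.75 and -0.10, and neither passed. Of the same list, LSU1 and BGLU28 changed by 0.61 and 0.74 in leaves and by 1.09 and 1.57 in roots, and none of these values passed. On the WT leaf array numbered 1, LSU1 had 286, against 29.9 and 60.96 on the others, and BGLU28 had 239, against 64.4 and 60.6. Without that array both passed as higher in pdx1.3 leaves (adjusted p = 0.0144 and 0.0157 by limma), and BGLU28 also in roots (0.0101). Each passed in leaves in 1 of 12 fits without 1 array.

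**Figure D4:**
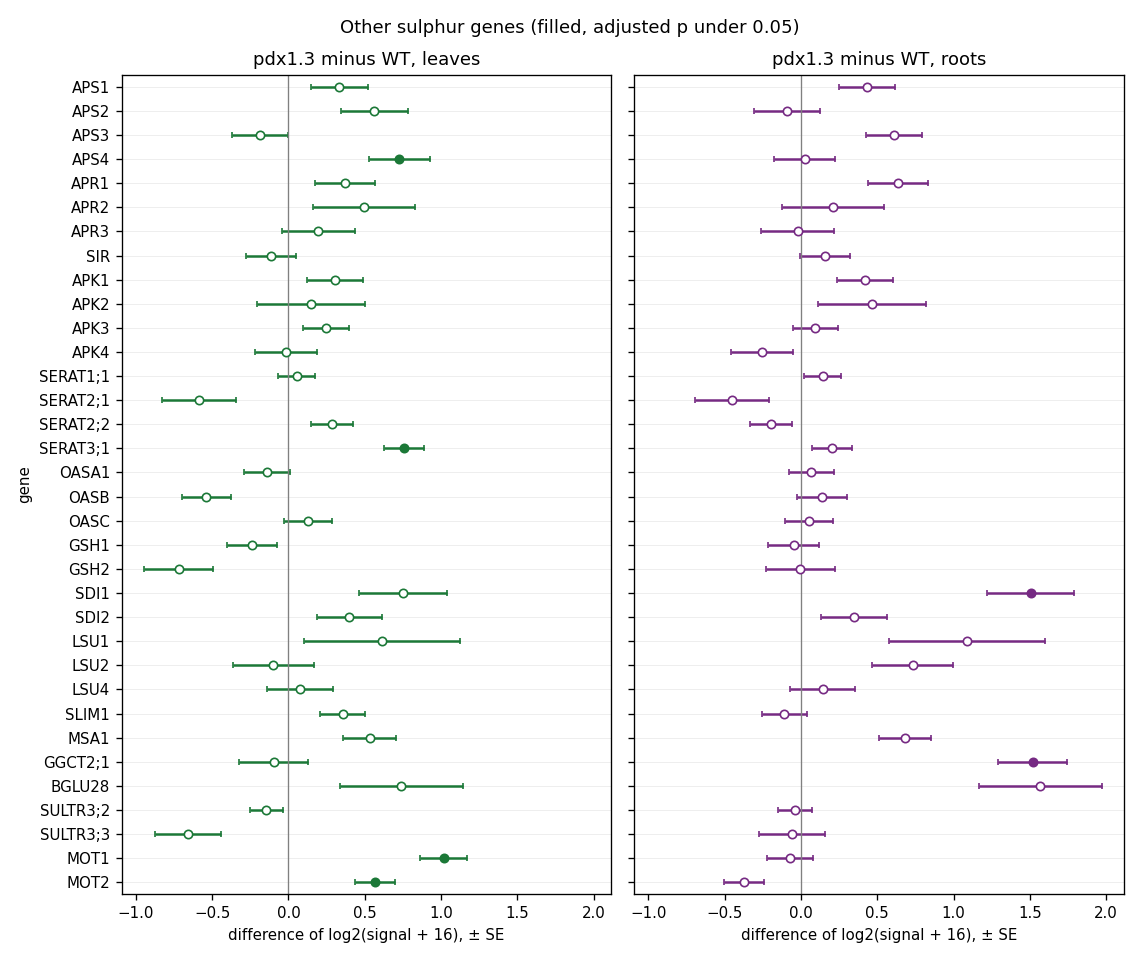
Change of 34 other sulphur genes, pdx1.3 minus WT, as the difference of log2(signal + 16) with its SE, in leaves and in roots. Filled points passed at an adjusted p under 0.05. APS4, SERAT3;1, MOT1 and MOT2 passed in leaves, and SDI1 at 1.51 and GGCT2;1 at 1.52 in roots.

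The genes whose pattern was most like that of each called transporter were sought over 12 arrays among 10864 other probe sets of 1 locus with a mean above the median of the array. After the mean of each organ was subtracted on the log2 scale, SULTR2;1 and SULTR4;2 were each the nearest gene to the other, with a Pearson r of 0.972. On the 6 mutant arrays the first lay 0.13 to 1.25 above its organ means and the second 0.023 to 0.48, and on the 6 WT arrays both lay below. Within mutant roots both were lowest on array 3, where the actin 3'/5' ratio was 6.59, against 2.97 and 3.99 on the other mutant root arrays. Within WT roots both were highest on array 3, SULTR2;1 at 176 and SULTR4;2 at 109, where the ratio of 6.4 was also the highest. With the actin ratio as a covariate, the root change of SULTR2;1 was 1.48 (adjusted p = 0.00891 by limma) and that of SULTR4;2 0.50 (adjusted p = 0.0969). The cause of the low values on array 3 of the mutant roots was not tested. The points share their arrays and their split by genotype, and r is given as a description.

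**Figure D5:**
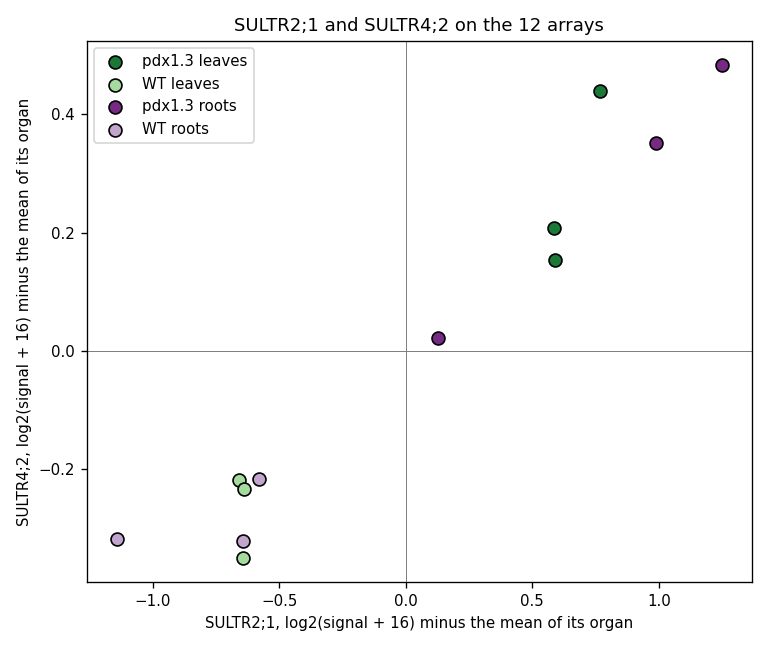
SULTR2;1 and SULTR4;2 on each of the 12 arrays, as log2(signal + 16) minus the mean of the 6 arrays of the same organ. The 6 pdx1.3 arrays lie at the upper right and the 6 WT arrays at the lower left, with r = 0.972.

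After its vacuolar partner in this ranking, the vascular carrier was followed by AT1G23850 (r = 0.961) and the protein kinase gene MPK19 (r = 0.956). For the exporter the next were MPK19 (r = 0.953) and ILL6, a gene of the amino acid conjugate hydrolases (r = 0.946). The nearest genes to SULTR3;1 were NCED4 (r = 0.975), CIA2 (r = 0.973) and AT5G39080 (r = 0.972). CIA2 is known as a transcription factor for chloroplast protein import, and NCED4 as a carotenoid cleavage enzyme. NCED4 was 1.70 higher in pdx1.3 leaves on the log2 scale and 0.061 in roots, where the chloroplast carrier had 1.56 and -0.026.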

How the data were processed

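RNA of leaves and roots of pdx1.3 ko and WT seedlings was hybridised to 12 ATH1 arrays, 3 per group, and groups and replicate numbers come from the sample titles. The authors deposited 1 linear signal intensity per probe set and array, made with MAS5 and GCOS per the submitters' processing notes (versions not given in the sources used here), together with detection calls of present, marginal or absent. A pair of the authors' quality values were read as deposited scores, for actin and GAPDH 3'/5' ratios, and only the actin ratio entered a fit. The authors' deposited table also holds a signed fold change, an unadjusted p-value and the number of array pairs with a change call. The number of arrays limits the precision, and all table columns were mapped to samples.

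Of 22810 probe sets, 64 controls were left out and 22746 tested. Signals were used as deposited, 16 was added before log2, and limma 3.58.1 in R 4.3.3 estimated 1 mean for each group from all 12 arrays, with eBayes following the trend of variance on level. Benjamini-Hochberg adjustment ran over all 22746 probe sets, and adjusted p under 0.05 was called. The procedure was tested on simulated data. Loci were read from the 21526 probe sets that carry a single locus. A bound set the bright group's mean against the median signal of probe sets called marginal on each array, or the gene's own signal if higher. It leaves out the spread of replicates, and the adjusted p values belong to the log2 changes.

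The 10 transporters and the lists were chosen with earlier results of these data known. Named genes were all transporters, PDX1.3, list genes called in either organ, the miR395 targets, and the 3 genes of most similar pattern to each called transporter. Some other genes of the sulphur list are named beside them, with the results known. None of those passed either genotype test with all arrays. Alternatives were quantile normalization, centring, constants of 1 and 64, a filter of present calls on at least 3 arrays (17449 probe sets), other variance models, the arrays compared alone, an actin ratio covariate, a second deposited signal table, the replicate number as a block, and leaving out arrays. Coordinates are left out, since no genome build is named.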

Additional observations from a re-analysis of the deposited data

Results flagged for a closer look

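Of the 10 transporters 1 changed unequally between organs, and of the 34 other sulphur genes 3 did. Each passed the limma test of the difference itself (pdx1.3 minus WT in leaves, minus the same in roots). Over all probe sets 1.87% passed this test. SULTR3;1 differed by 1.58 (adjusted p = 0.0159), with a change of 1.56 in leaves and -0.026 in roots. MOT1 differed by 1.09 (adjusted p = 0.0248), with 1.02 in leaves and -0.074 in roots, where it was called absent on all 6 arrays, as in WT leaves, and near background the size varies with the constant that is added. MOT2 differed by 0.94 (adjusted p = 0.0255), with 0.57 in leaves and -0.37 in roots. GGCT2;1 differed by -1.62 (adjusted p = 0.0249), with -0.10 in leaves and 1.52 in roots. Leaving out 1 array ended the call of SULTR3;1 in 1 of 12 fits (without the second WT root array), of MOT1 in 6, of MOT2 in 7 and of GGCT2;1 in 5, with adjusted p values of up to 0.0528, 0.0639, 0.0806 and 0.0737. Root arrays and the third pdx1.3 leaf array account for all the fits that ended the call of MOT1, and to these the second WT leaf array was added for MOT2 and the second pdx1.3 leaf array for GGCT2;1. With a constant of 1 the call of MOT1 was lost at 0.11 and that of SULTR3;1 at 0.0575. Without both leaf arrays numbered 1, a setting chosen after seeing the data, MOT1 had 0.0634 and GGCT2;1 0.0547. The cause of these differences was not tested.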

How the results depend on the processing

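Single-gene results were recomputed under every alternative that could be run, 1455 values for 62 results, of which 1322 kept their direction and side of the threshold, 89 lost a call, 16 gained one and 28 changed sign. The cause of these changes was not tested beyond what the alternatives themselves set. Transporters called in roots went to 0 (1 in the report) with root arrays alone and to 0 with the replicate block, and those called for unequal change between organs to 0 (1 in the report) with a constant of 1 and to 0 with the block. Sulphur list calls in leaves went to 1 (4 in the report) with leaf arrays alone. In roots they went to 1 (2 in the report) with a constant of 1, 1 with root arrays alone, 1 with no variance trend and 4 without both leaf arrays numbered 1, a setting chosen after seeing the data. Over all probe sets, leaf calls numbered 1642, and were 516 with leaf arrays alone and 971 with the block. Root calls numbered 184, and were 83 with a constant of 1, 61 with root arrays alone and 89 with the block. Calls of unequal change numbered 425, and were 248 with a constant of 1 and 135 with the block.

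Without 1 array, transporters called were 2 to 4 in leaves, 1 to 3 in roots and 0 to 1 for unequal change. Sulphur list calls were 2 to 6 in leaves and 1 to 4 in roots. Calls over all probe sets were 1051 to 1661 in leaves, 75 to 384 in roots and 137 to 554 for unequal change.

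Sign changes arose in values that passed no test. In leaves, SULTR1;1 went to -0.065 with the actin covariate and -0.020 without both leaf arrays numbered 1, SULTR1;2 to 0.40 without those arrays, SULTR3;5 to -0.052 with quantile normalization, -0.058 with centring and -0.012 without those arrays, and GGCT2;1 to 0.091 without them. In roots APS4 went to -0.043 with the actin covariate. The unequal change of SULTR4;2 went to 0.046 with a constant of 1. For leaves minus roots, SULTR3;5 in pdx1.3 went to 0.033 with quantile normalization and 0.013 with centring, and SULTR1;3 in WT to 0.089 with centring. Without 1 array, leaf values ranged from -0.48 to 0.55 for SULTR1;2, -0.20 to 0.13 for SULTR2;2, -0.046 to 0.045 for SULTR3;5 and -0.26 to 0.084 for GGCT2;1. Root values ranged from -0.14 to 0.60 for SULTR1;1, -0.10 to 0.019 for SULTR2;2, -0.092 to 0.041 for SULTR3;1 and -0.10 to 0.13 for APS4, and the unequal change of SULTR4;2 from -0.17 to 0.062.

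Whether the replicate numbers pair the samples cannot be settled from the arrays. Deviations of same-numbered pdx1.3 and WT arrays correlated at -0.089, -0.043 and -0.0070 in leaves and -0.045, -0.21 and -0.10 in roots. Those of same-numbered leaf and root arrays correlated at 0.16, -0.17 and 0.35 in pdx1.3 and -0.072, -0.10 and -0.085 in WT. With the number as a block, SULTR2;1 had an adjusted p of 0.0576 in roots, SULTR4;2 one of 0.115 in leaves, and the unequal changes of SULTR3;1 and MOT2 had 0.0704 and 0.0719. The block was not run for contrasts between organs, and the test of unequal change cannot be run on 1 organ. Averaging the probe sets of a locus changes nothing, since each transporter has 1. Signals near background, as for SULTR1;3 and MOT1, limit what the arrays can show.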
